A study of Mus musculus with 5 samples.

Results

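The genes described here are 44 genes of the cell division cycle and of the E2F-Rb pathway, taken by symbol from RNA-seq of the mouse hippocampus. They are the cyclins, the cyclin-dependent kinases (CDKs) and their inhibitors, the CDC25 phosphatases, the Rb family, the E2F factors, the MCM helicase and markers of proliferation. All 44 were among the 23361 genes listed in each library. 29 of them had a mean of at least 1 FPKM and were tested among 12740 genes, and the other 15 lay under that level. FPKM are sequenced fragments per kilobase of transcript, adjusted for library size, so they can be compared between genes per length. The members were split into 23 genes of proliferation, of which 12 were tested, and 21 genes with roles outside division, of which 17 were tested. The split was meant to set genes of dividing cells apart from genes that neurons express.

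The libraries came from mice aged 3 months. The control group (n = 2) is labelled WT. The study names *Hdac1* f/f controls, with the floxed allele alone, for its young mice, but does not state the control genotype for the RNA-seq. The *Hdac1* cKO group (n = 3) carried the floxed allele with *Nestin-Cre*. By the study's account this deletes *Hdac1* in neurons and astrocytes, and its young mice were male. Other cells of the tissue, such as microglia and vessel cells, are outside that description. Controls of either description carry no Cre, so an effect of *Nestin-Cre* itself cannot be told apart from that of the deletion. The study counts these libraries as mice, so each was taken as a separate animal. The p-values measure the spread between them, moderated by limma toward a trend over all tested genes.

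In a dividing cell, D-type cyclins with CDK4 or CDK6 phosphorylate the retinoblastoma protein (Rb) and its relatives, the pocket proteins. This releases E2F factors, which switch on the genes of DNA replication. Pocket proteins bound to E2F repress those genes, in part by recruiting histone deacetylases including HDAC1, and INK4 and CIP/KIP inhibitors hold the kinases back. The adult hippocampus consists mostly of cells that no longer divide, with dividing progenitors in the subgranular zone and dividing oligodendrocyte precursors as rare exceptions. Mature neurons nevertheless express many parts of this machinery, among them CDK5, p27 and Rb. In a bulk tissue sample, fewer cells of a type and less RNA per cell cannot be told apart.

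*Hdac1*, a class I histone deacetylase on the minus strand of chromosome 4 (129193348 to 129219957, mm9), was at 8.95 and 13.1 FPKM in the controls. It was at 1.95, 3.12 and 3.37 FPKM in the *Hdac1* cKO libraries, so the groups did not overlap and the levels matched the labels. The log2 fold change was −1.66 on the log2(FPKM + 1) scale used throughout (limma, p of 5.16e-05, adjusted p = 0.219 over all tested genes). Over the alternatives its adjusted p ran from 0.00389, with the set of libraries (control 1 and cKO 1, or the other 3) as a block, to 0.931 without moderation of variances, and the unadjusted p was under 0.05 in each of them. A locus on chromosome 17 is 98.8% identical to the *Hdac1* transcript over 2004 nt, and signal left in cKO libraries cannot be told apart from reads of such copies. The estimated depth was 5140000 to 6770000 fragments per library, lowest in cKO 2. By the steps shared among low FPKM values, control 1 and cKO 1 belong together (set 1), as do control 2, cKO 2 and cKO 3 (set 2). Within a set, 24.6% to 28.4% of low genes shared the same step in the ratio between libraries, against 3.71% to 4.64% across sets. Differences within each set are therefore given, without a test, for the members that did not overlap between the groups and for those whose sign differed between the sets. The neuronal markers *Rbfox3*, *Syt1*, *Snap25* and *Map2* summed to between 1219 and 1402 FPKM in every library, mostly *Snap25* (749 to 903 FPKM). Within that sum *Rbfox3* was below both controls in every cKO library (log2 fold change −0.23) and *Map2* above both (0.17), neither past the threshold. The granule cell markers of the dentate gyrus summed to 103.7 and 109.9 FPKM in the controls and to 100.4, 99.5 and 98.4 FPKM in the cKO libraries. Every cKO sum was thus below both controls, while no single marker of that list separated the groups.

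Cell cycle genes did not pass the threshold for a difference between *Hdac1* cKO and control mice. None of the 29 tested members reached a fold change of at least 1.5 with an unadjusted limma p under 0.05, a threshold that 84 of all 12740 genes passed (0.659%). None had an adjusted p under 0.05, which 1 gene of the whole table reached (0.00785%). The adjusted p of the members was 0.955 or above. At an unadjusted p under 0.05 there was 1 member (3.45%), *Cdkn1c*, against 4.36% of all tested genes. The members' fold changes were 14 above and 15 below 0, with a median of −0.00, and 16 of them lay within 0.1 of 0 on the log2 scale. The median size of the difference, regardless of sign, was 0.09 for the members and 0.10 for all tested genes.

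For 24 of the 29 tested members (82.8%) the 95% interval lay inside 1.5-fold in both directions on the log2(FPKM + 1) scale, about the share of all tested genes (82.3%). The 5 exceptions were *Ccnd3*, *Cdkn1b*, *Cdkn1c*, *E2f4* and *Mcm2*. The added 1 FPKM shrinks differences of low genes, and 13 of the tested members had means of 1 to 5 FPKM, so for these the interval does not bound the fold in FPKM. With 0.1 FPKM added instead, 17 of the 29 (58.6%) lay inside, against 68.7% of all tested genes, and 4 of those 13. For *Cdk2* the interval then ran from −0.56 to 0.97. In 4 members every cKO library was above both controls (*Cdkn1c*, *Cdk4*, *Rb1* and *Mcm6*), which is 13.8% against 11.0% of all tested genes. In 1 member, *Mcm4*, every cKO library was below both controls, 3.45% against 9.41% of all tested genes. Together 5 of the 29 (17.2%) did not overlap, against 20.4% of all tested genes. Between the sets of libraries the sign of the difference was the same for 14 members and opposite for 15.

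**Figure D1:**
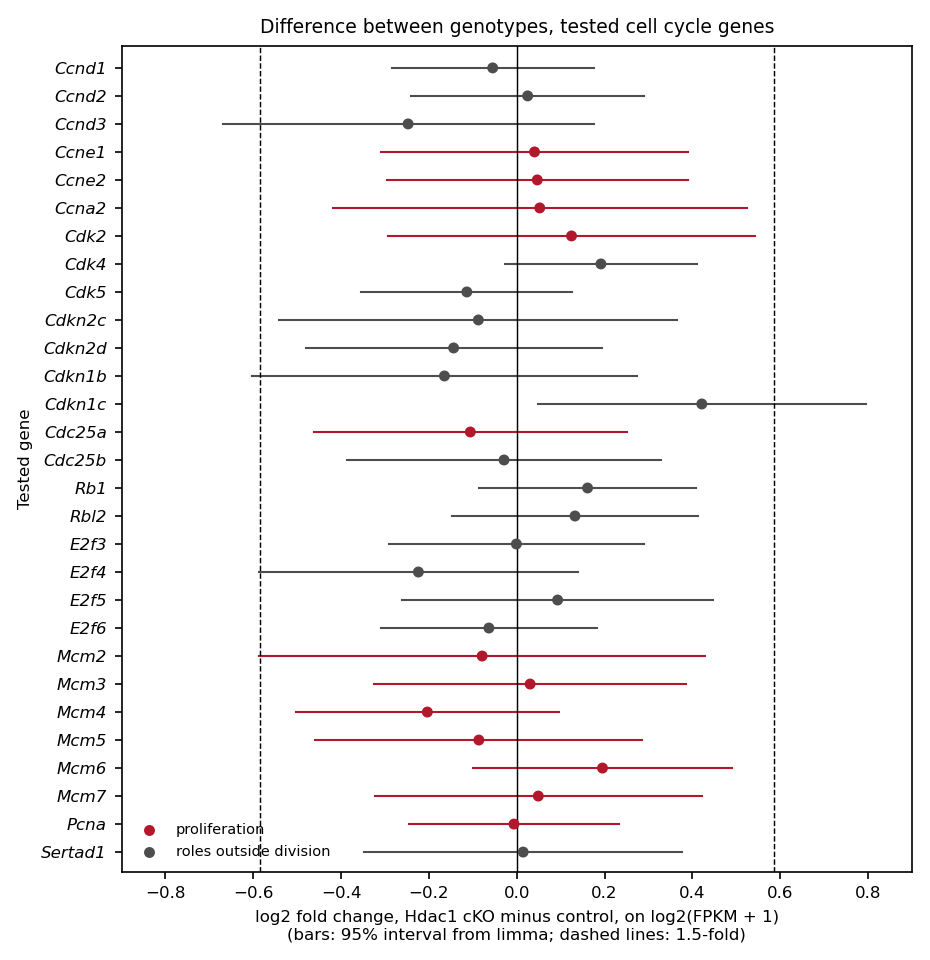
Log2 fold change between genotypes (cKO minus control, on log2(FPKM + 1)) for the 29 tested genes in order of role. Points are limma estimates, bars are 95% intervals and dashed lines mark 1.5-fold. All points lie inside the dashed lines, and the interval of *Cdkn1c* is the only one that leaves out 0.

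The lists differed in level, which the split between dividing cells and neurons builds in and which is given as a description only. The proliferation members had a median of their mean levels of 1.09 FPKM, and the members with roles outside division 7.88 FPKM. Of the 16 members at 5 FPKM or above, 14 had roles outside division and 2 (*Pcna* and *Mcm6*) belonged to proliferation. Of the 15 members under 1 FPKM, 11 belonged to proliferation. The median log2 fold change was 0.04 for the 12 tested proliferation members and −0.03 for the 17 tested members with other roles, beside 0.01 for all tested genes.

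**Figure D2:**
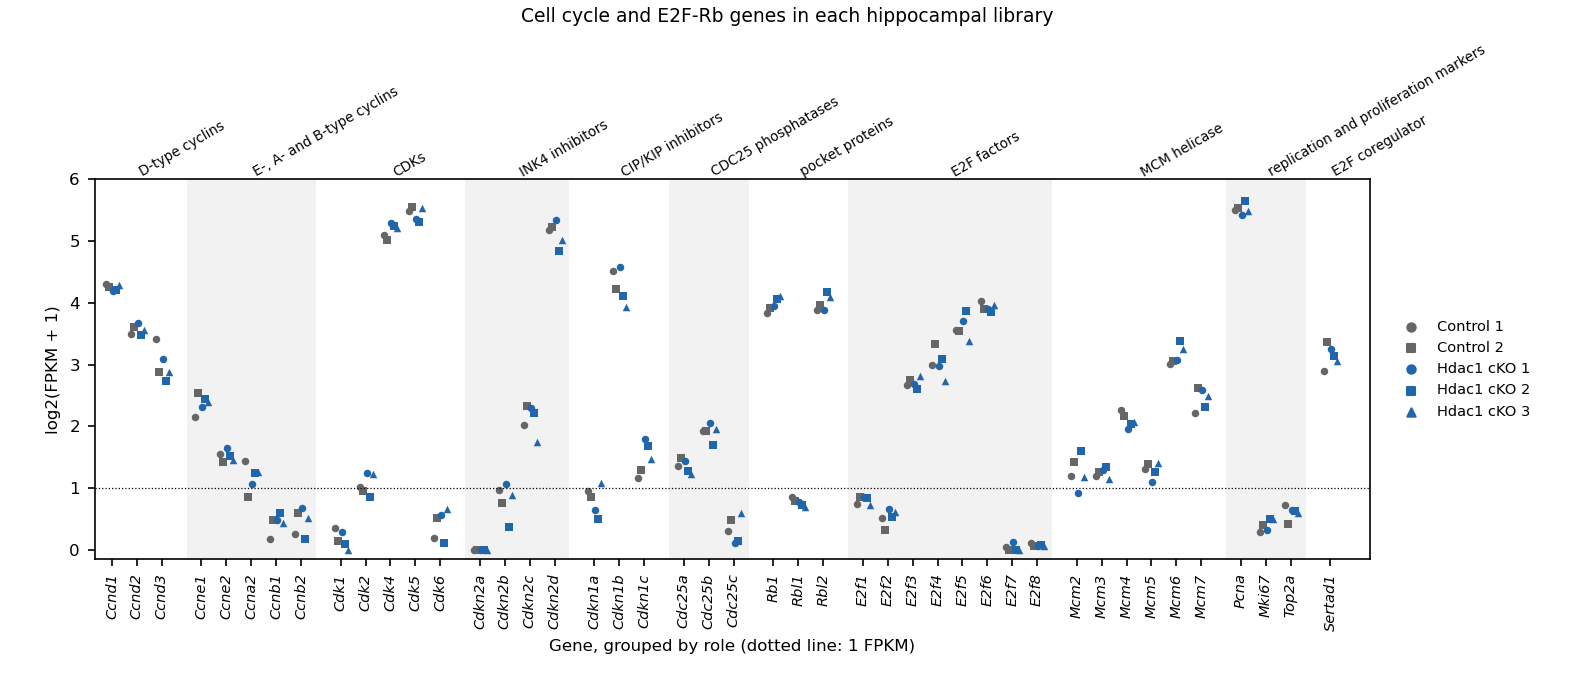
Expression of all 44 genes as log2(FPKM + 1) in each of the 5 libraries, grouped by role, with controls in grey and *Hdac1* cKO libraries in blue. The dotted line marks 1 FPKM. D-type cyclins, *Cdk4*, *Cdk5*, *Cdkn1b*, *Cdkn2d*, *Rb1*, *Rbl2* and *Pcna* stand high in every library, and the mitotic genes stand near 0.

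The D-type cyclins carry growth signals to CDK4 and CDK6, and all 3 were well expressed. *Ccnd1* was at 18.8 and 18.2 FPKM in control libraries, compared with 17.3, 17.4 and 18.6 FPKM in *Hdac1* cKO libraries. *Ccnd2*, the D-type cyclin of adult neural progenitors, was at 10.3 and 11.1 FPKM against 11.8, 10.1 and 10.8 FPKM. *Ccnd3* was at 9.68 and 6.36 FPKM against 7.52, 5.63 and 6.38 FPKM. The groups overlapped for each of them, and control 1 stood apart for *Ccnd3*. The log2 fold changes were −0.05 for *Ccnd1* (95% interval −0.28 to 0.18), 0.02 for *Ccnd2* (−0.24 to 0.29, but 0.18 within set 1 and −0.08 within set 2) and −0.25 for *Ccnd3* (−0.67 to 0.18). Without control 2 the log2 fold change of *Ccnd3* was −0.52, a comparison that rests on control 1 alone. Without control 1 it was 0.02, resting on control 2 alone. A pseudogene on chromosome 4 is 95.5% identical to *Ccnd3* over 1843 nt.

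The cyclins of later phases were lower. Cyclin E drives entry into S phase with CDK2, and *Ccne1* was at 3.44 and 4.80 FPKM in control libraries, compared with 3.97, 4.46 and 4.23 FPKM in *Hdac1* cKO libraries. All cKO values lay between the controls, with a log2 fold change of 0.04 (−0.31 to 0.39), which was 0.17 in set 1 and −0.12 in set 2. The mean level of *Ccne2* was 1.86 FPKM. *Ccna2*, which encodes the cyclin of S phase and G2, was at 1.70 and 0.800 FPKM against 1.09, 1.37 and 1.40 FPKM, again between the controls. Its difference was −0.37 in set 1 and 0.41 in set 2. *Ccnb1* and *Ccnb2*, the cyclins of mitosis, had means of 0.353 and 0.372 FPKM and were not tested. *Ccnb1* has 3 copies in the genome at 97.6% to 99.1% identity, to which its few reads could also belong.

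Among the kinases, the neuronal enzyme was the highest and the mitotic one the lowest. *Cdk5*, a CDK of postmitotic neurons that is activated by p35 and not by a cyclin, was the highest at 43.7 and 45.9 FPKM in control libraries, compared with 40.2, 38.7 and 45.2 FPKM in *Hdac1* cKO libraries. Its cKO 3 value lay between the controls, and its difference was −0.11 (−0.35 to 0.13). *Cdk1*, which drives mitosis, was at 0.275 and 0.105 FPKM against 0.219, 0.0675 and 0 FPKM, the value of cKO 3 being listed as 0. These correspond to an estimated 5.3 and 2 fragments in control libraries, and 4.3, 1 and 0 in cKO libraries. *Cdk1* was below the level for the main test, and with no filter on low values its log2 fold change was −0.12 (limma p of 0.323, adjusted p = 0.956). *Cdk2* was near the limit for testing at a mean of 1.09 FPKM, with a log2 fold change of 0.12 (−0.29 to 0.54). *Cdk6* had a mean of 0.340 FPKM.

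*Cdk4*, the kinase partner of the D-type cyclins, was at 33.4 and 31.3 FPKM in control libraries, compared with 38.3, 37.0 and 36.1 FPKM in *Hdac1* cKO libraries. All cKO libraries were above both controls. Mean levels were 32.4 ± 1.52 FPKM (SD, n = 2) and 37.1 ± 1.10 FPKM (SD, n = 3), which gives a log2 fold change of 0.19 (−0.03 to 0.41) with a limma p of 0.0773 (adjusted p = 0.955). The difference was 0.19 in set 1 and 0.22 in set 2. With the set as a block it was 0.20 (p of 0.0186, adjusted p = 0.482), a fit in which 9.34% of all tested genes had a p under 0.05. *Cdk4* lies on chromosome 10 (126500590 to 126504976, plus strand, mm9), and 604 of its 3249 exonic nt overlap *Tspan31* on the opposite strand, whose reads could count toward either gene.

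Of the INK4 inhibitors, which bind CDK4 and CDK6, *Cdkn2d* (p19) was the one with a high level. It was at 35.4 and 36.6 FPKM in control libraries, compared with 39.5, 27.7 and 31.3 FPKM in *Hdac1* cKO libraries, so cKO 1 was above and the others below the controls. The log2 fold change was −0.14 (−0.48 to 0.19), but 0.15 within set 1 and −0.30 within set 2. It was −0.28 without cKO 1 (limma p of 0.0426, adjusted p = 0.639) and −0.03 without cKO 2. *Cdkn2d* shares stretches of 872 and 403 nt, at 99.9% and 100% identity, with a gene model on the same chromosome. *Cdkn2c* had a mean of 3.39 FPKM and a log2 fold change of −0.09, which was 0.28 within set 1 and −0.35 within set 2, and *Cdkn2b* a mean of 0.776 FPKM. *Cdkn2a*, which encodes the senescence marker p16 and the p53 regulator ARF, was listed at 0 in all 5 libraries.

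The CIP/KIP inhibitors bind a wider range of cyclin-CDK complexes and held the member with the smallest p. *Cdkn1c* (p57), an imprinted gene that restrains division during development and in quiescent stem cells, was at 1.23 and 1.46 FPKM in the controls. In the cKO libraries it was at 2.48, 2.19 and 1.77 FPKM. Every cKO library was above both controls, with cKO 1 the highest. Mean levels were 1.34 ± 0.161 FPKM (SD, n = 2) and 2.15 ± 0.355 FPKM (SD, n = 3). Their ratio was 1.60. On the log2(FPKM + 1) scale the difference was 0.42 (0.05 to 0.79), with a limma p of 0.0312 before adjustment (adjusted p = 0.955). It was below the 1.5-fold threshold with a pseudocount of 1 and above it with 0.1, at 0.63 (p of 0.0319, adjusted p = 0.953). Its adjusted p was 0.384 or above under every alternative. The difference had the same sign in both sets of libraries, 0.64 in set 1 and 0.28 in set 2. The p was 0.149 without control 1, 0.0552 without control 2, 0.0993 without cKO 1, 0.0670 without cKO 2 and 0.0513 without moderation of variances. Without cKO 3 it was 0.0222, so any of the other 4 libraries left out took it above 0.05. An estimated 15.9 and 18.6 fragments in control libraries, and 32.4, 21.8 and 21.6 in cKO libraries, stand behind these values. *Cdkn1c* lies on chromosome 7 (150644255 to 150646955, minus strand, mm9).

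Markers of the leptomeninges, the membranes that cover the brain, were read beside *Cdkn1c*. Their summed level was 45.5 and 55.7 FPKM in control libraries, compared with 57.7, 64.6 and 65.5 FPKM in *Hdac1* cKO libraries. Most of this sum was *Dcn*, at 28.9 and 44.4 FPKM in control and 33.7, 45.8 and 39.2 FPKM in cKO libraries. Of the 5 tested markers of 6, all had a positive fold change, as did 53.7% of all tested genes. Only 1 passed the threshold, which 0.659% of all tested genes passed. This was *Igf2*, an imprinted growth factor, which rose past the threshold, with 7.53 and 4.41 FPKM in control and 12.8, 9.40 and 15.2 FPKM in cKO libraries (difference of 0.96 on the log2 scale, limma p of 0.00327, adjusted p = 0.955), though its p was 0.0678 without moderation of variances. *Ogn*, an extracellular matrix protein, was at 3.94 and 3.80 FPKM against 5.75, 5.43 and 4.38 FPKM, again with every cKO library above both controls (0.34, p of 0.0447, adjusted p = 0.955), though its p was 0.0565 to 0.142 in 8 of 14 alternatives, among them 4 of the 5 that leave out a library. *Col1a2*, *Dcn* and *Slc6a13* overlapped between the groups, with differences of 0.33, 0.13 and 0.12 on the log2 scale. The sign differed between the sets for *Dcn* (0.22 in set 1 and −0.06 in set 2) and *Slc6a13* (−0.37 in set 1 and 0.49 in set 2). No marker of this list was at 0 in all libraries, and *Col1a1*, a defining fibroblast collagen, was at 0.361 to 1.35 FPKM with overlapping groups. Choroid plexus markers summed to 165 and 6.77 FPKM in the controls and to 74.0, 599 and 25.0 FPKM in the cKO libraries, and *Ttr* alone ran from 1.33 to 589 FPKM. The part of such cells in the *Cdkn1c* difference was not tested.

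The other CIP/KIP genes did not separate the groups. *Cdkn1b* (p27), the inhibitor that keeps differentiated cells out of the cycle, was at 22.0 and 17.6 FPKM in control libraries, compared with 22.8, 16.2 and 14.3 FPKM in *Hdac1* cKO libraries. The groups overlapped, and set 1 was above set 2 in each genotype. Its log2 fold change was −0.16 (−0.60 to 0.27), made up of 0.05 in set 1 and −0.20 in set 2, and −0.35 without cKO 1 (p of 0.0379, adjusted p = 0.632). *Cdkn1a* (p21), a target of p53 after DNA damage, was at 0.937 and 0.807 FPKM against 0.557, 0.416 and 1.11 FPKM and was too low to be tested.

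The CDC25 phosphatases remove inhibitory phosphates from CDKs. The study names *Cdc25b* and *Sertad1* as upregulated in aged cKO mice and probed both promoters at that age, which is not covered here. *Cdc25b* was at 2.81 and 2.79 FPKM in control libraries, compared with 3.13, 2.22 and 2.87 FPKM in *Hdac1* cKO libraries. The controls lay within the range of the cKO libraries, with a log2 fold change of −0.03 (−0.39 to 0.33). *Cdc25a* had a mean of 1.56 FPKM and a log2 fold change of −0.11. Both were higher in cKO within set 1 (0.12 and 0.08) and lower within set 2 (−0.10 and −0.23). *Cdc25c*, which acts on CDK1 at mitosis, had a mean of 0.262 FPKM. *Sertad1*, a coregulator of E2F that also binds CDK4, was at 6.45 and 9.33 FPKM against 8.48, 7.78 and 7.37 FPKM. All cKO values lay between the controls, and the log2 fold change of 0.01 (−0.35 to 0.38) joined opposite differences of 0.35 in set 1 and −0.27 in set 2.

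The pocket proteins are the link between the CDKs and E2F, and Rb is the member through which HDAC1 is best known to reach E2F target genes. *Rb1* was at 13.3 and 14.1 FPKM in control libraries, compared with 14.4, 15.7 and 16.2 FPKM in *Hdac1* cKO libraries. All cKO libraries were above both controls, cKO 1 by the smallest margin. Mean levels were 13.7 ± 0.592 FPKM (SD, n = 2) and 15.4 ± 0.911 FPKM (SD, n = 3). On the log2 scale the difference was 0.16 (−0.08 to 0.41), with a limma p of 0.170 (adjusted p = 0.955). Set 1 gave 0.11 and set 2 gave 0.17. *Rb1* spans 73583480 to 73725629 on the minus strand of chromosome 14 (mm9), and 488 and 408 of its 6015 exonic nt overlap *Rcbtb2* and *Lpar6* on the opposite strand. *Rbl2* (p130), the pocket protein of quiescent cells, was at 13.7 and 14.5 FPKM against 13.7, 17.0 and 16.2 FPKM. Its groups overlapped through cKO 1, and its log2 fold change was 0.13 (−0.15 to 0.41), with −0.00 in set 1 and 0.18 in set 2. *Rbl1* (p107), which is made mainly in cycling cells, was at 0.803 and 0.726 FPKM against 0.706, 0.655 and 0.614 FPKM. It lay under the level for testing, with every cKO library below both controls. With no filter on low values, 16.3% of members did not overlap between the groups, against 18.9% of all genes then fitted.

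The E2F family split by level. The factors *E2f3* to *E2f6*, which include the repressors that work with pocket proteins in resting cells, had means of 5.54 to 14.3 FPKM. *E2f1*, *E2f2*, *E2f7* and *E2f8*, which are themselves E2F targets in cycling cells, had means of 0.0236 to 0.745 FPKM. *E2f6*, the highest, was at 15.4 and 13.9 FPKM in control libraries, compared with 13.9, 13.5 and 14.6 FPKM in *Hdac1* cKO libraries. The groups overlapped, with a log2 fold change of −0.06 (−0.31 to 0.18), which was −0.14 in set 1 and 0.01 in set 2. A stretch of the *Grm8* gene is 96.2% identical to *E2f6* over 1131 nt. *E2f4*, the main partner of the pocket proteins in resting cells, was at 6.93 and 9.10 FPKM against 6.87, 7.55 and 5.68 FPKM. Its log2 fold change was −0.22 (−0.59 to 0.14), made up of −0.01 in set 1 and −0.42 in set 2. *E2f3* had a log2 fold change of −0.00 (0.03 in set 1 and −0.04 in set 2) and *E2f5* one of 0.09, and all 4 tested E2F genes overlapped between the groups. Of the untested ones, *E2f2* was at 0.423 and 0.247 FPKM in control libraries, compared with 0.576, 0.438 and 0.521 FPKM in *Hdac1* cKO libraries. These did not overlap, as was so for 16.3% of members and 18.9% of all genes fitted with no filter on low values. In that fit *E2f2* had the smallest p of the members left out of the main test (limma p of 0.117, adjusted p = 0.953).

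The 6 subunits of the MCM helicase, which unwinds DNA at replication origins, form 1 ring and are E2F targets in cycling cells. The letters that E2F recognises were therefore searched in the promoters of the members. In RefSeq promoter sequences (GRCm38.p6, 250 bases before to 50 after a gene's start) for 33 of the 44 members, the E2F octamers TTTCGCGC, TTTGGCGC, TTTCCCGC or TTTGCCGC were searched on both strands. They occurred in 10 of 19 proliferation members (52.6%) and in 2 of 14 members with other roles (14.3%), against 2.26% of all 32851 promoters in the reference and 2.60% of all 27025 genes. The 4 MCM windows below are shown because their genes carry such letters and differ in level and in the sign of their small differences between genotypes. Capitals mark the octamers inside each window, and in *Mcm5* and *Mcm6* the pair of octamers overlaps on opposite strands:
Mcm3, chr1:20820263-20820322, minus strand: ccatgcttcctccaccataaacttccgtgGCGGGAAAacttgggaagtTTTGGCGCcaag
Mcm5, chr8:75109330-75109389, plus strand: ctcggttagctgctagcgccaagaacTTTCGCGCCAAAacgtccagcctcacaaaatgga
Mcm6, chr1:128359782-128359841, minus strand: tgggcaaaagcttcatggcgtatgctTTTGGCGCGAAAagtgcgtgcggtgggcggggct
Mcm7, chr5:138172015-138172074, minus strand: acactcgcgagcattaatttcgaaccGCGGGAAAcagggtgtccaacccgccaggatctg
The *Mcm2* promoter was searched too and held none of these octamers. A match is a description of letters and not a bound site.

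The MCM genes had means of 1.37 to 7.94 FPKM. *Mcm6* was the highest, at 7.09 and 7.32 FPKM in control libraries, compared with 7.44, 9.37 and 8.48 FPKM in *Hdac1* cKO libraries. All cKO libraries were above both controls, cKO 1 only just. Mean levels were 7.21 ± 0.168 FPKM (SD, n = 2) and 8.43 ± 0.968 FPKM (SD, n = 3). On the log2 scale the difference was 0.20 (−0.10 to 0.49), with a limma p of 0.165 (adjusted p = 0.955), and it was 0.06 in set 1 and 0.25 in set 2. It lies on chromosome 1 (130228168 to 130256233, minus strand, mm9).

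*Mcm4* went the other way, at 3.82 and 3.51 FPKM in control libraries, compared with 2.89, 3.08 and 3.17 FPKM in *Hdac1* cKO libraries. All cKO libraries were below both controls. Mean levels were 3.66 ± 0.219 FPKM (SD, n = 2) and 3.05 ± 0.146 FPKM (SD, n = 3). On the log2 scale the difference was −0.20 (−0.50 to 0.10), with a limma p of 0.156 (adjusted p = 0.955). Set 1 gave −0.31 and set 2 gave −0.13. It lies on chromosome 16 (15623990 to 15637493, minus strand, mm9).

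The remaining subunits overlapped between the groups. *Mcm2* was at 1.30 and 1.67 FPKM in control libraries, compared with 0.886, 2.04 and 1.25 FPKM in *Hdac1* cKO libraries, the widest spread of the 6 relative to its level. *Mcm3* was at 1.28 and 1.40 FPKM against 1.45, 1.54 and 1.20 FPKM, and *Mcm5* at 1.46 and 1.60 FPKM against 1.14, 1.40 and 1.64 FPKM. *Mcm7* was at 3.63 and 5.12 FPKM against 4.99, 3.99 and 4.59 FPKM. The difference of *Mcm7* was 0.37 in set 1 and −0.21 in set 2, and that of *Mcm3* 0.10 and −0.02. Subunits of 1 complex thus lay on either side of 0, 3 above and 3 below, from −0.20 to 0.20 on the log2 scale. *Mcm6* stayed above 0 (0.12 to 0.27) and *Mcm4* below 0 (−0.28 to −0.16) under every alternative with a fit, as did *Mcm5* (−0.16 to −0.01), while *Mcm2*, *Mcm3* and *Mcm7* took both signs. For *Mcm7* a further locus on chromosome 16 is 97.5% identical over 2376 nt, and 321 exonic nt overlap *Ap4m1* on the opposite strand.

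**Figure D3:**
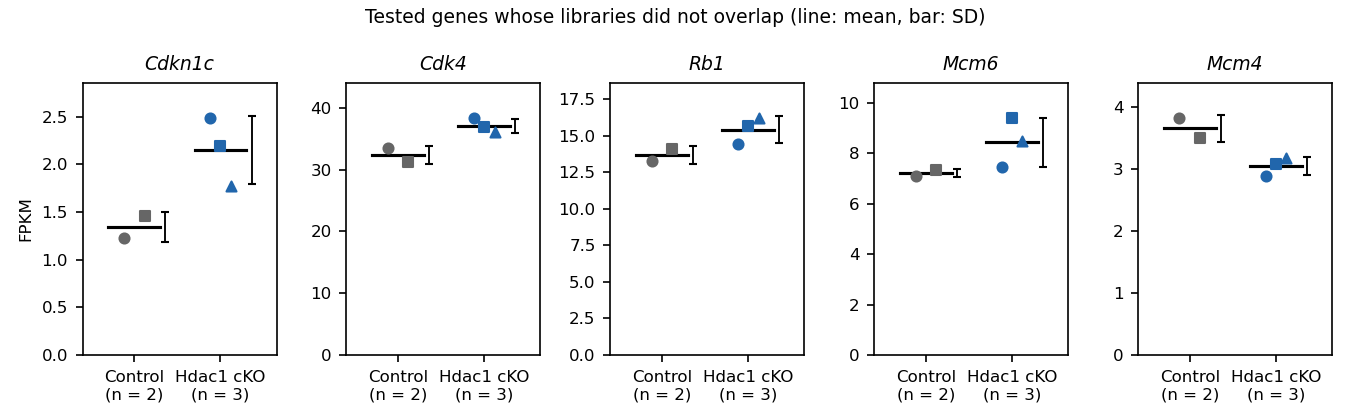
FPKM of *Cdkn1c*, *Cdk4*, *Rb1*, *Mcm6* and *Mcm4*, the 5 tested genes whose control (grey, n = 2) and *Hdac1* cKO (blue, n = 3) libraries did not overlap. Marker shapes give the replicate number, lines are means and bars are SD, with a separate axis from 0 for each gene. *Cdkn1c* shows the widest gap relative to its level, and the gaps of *Rb1* and *Mcm6* are set by cKO 1.

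Markers of proliferation were at the low end of the scale, with 1 exception. *Mki67*, which encodes the Ki-67 antigen of cycling cells, was at 0.225 and 0.314 FPKM in control libraries, compared with 0.244, 0.405 and 0.406 FPKM in *Hdac1* cKO libraries. *Top2a*, the topoisomerase of S phase and mitosis, was at 0.658 and 0.336 FPKM against 0.553, 0.541 and 0.501 FPKM. The groups overlapped for both genes. *Mki67* rested on an estimated 15.2 to 25.8 fragments per library and *Top2a* on 11.6 to 23. *Pcna*, the sliding clamp of DNA polymerase that also serves in DNA repair, was at 44.4 and 45.7 FPKM in control libraries, compared with 41.8, 49.1 and 43.9 FPKM in *Hdac1* cKO libraries. It was the highest of all 44 members, and its log2 fold change was −0.01 (−0.25 to 0.23), with −0.08 in set 1 and 0.02 in set 2. *Pcna-ps2*, a pseudogene on chromosome 19, is 99.3% identical to *Pcna* over 1258 of 1518 nt, so part of the *Pcna* level could come from reads shared with it.

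Mitotic genes often carry a further element, the CHR, which binds the DREAM and MuvB complexes in resting and cycling cells. Its letters, TTTGAA on either strand, occurred in 7 of 19 proliferation members (36.8%) and 3 of 14 others (21.4%), against 20.2% of all genes and 17.9% of all promoters. CCAAT boxes (CCAAT on either strand) occurred in 16 of 19 (84.2%) and 7 of 14 (50%), against 41.1% of all genes and 37.4% of all promoters. Each window below was placed on the first E2F octamer of the promoter, or without one on the first CHR letters. The *Cdk1* window therefore leaves out its CHR letters, which begin at −71 and −15 from the start. Further CHR letters of *Ccnb2* (at 5) and *Top2a* (at −23) also lie outside their windows. The members shown had mean levels of 0.133 to 0.518 FPKM, with E2F octamers or CHR letters in capitals:
Cdk1, chr10:69353010-69353069, minus strand: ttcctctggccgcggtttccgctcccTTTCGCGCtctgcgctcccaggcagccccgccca
Ccnb2, chr9:70421688-70421747, minus strand: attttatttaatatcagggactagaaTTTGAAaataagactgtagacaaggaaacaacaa
Mki67, chr7:135716462-135716521, minus strand: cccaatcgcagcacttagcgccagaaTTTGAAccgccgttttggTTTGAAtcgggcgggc
Top2a, chr11:99024335-99024394, minus strand: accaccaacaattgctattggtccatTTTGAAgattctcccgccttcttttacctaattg
The mean levels of the proliferation members with E2F octamers ran from 0.0236 FPKM (*E2f7*) to 7.94 FPKM (*Mcm6*). The other 9 proliferation members searched (*Ccne1*, *Ccnb1*, *Ccnb2*, *E2f1*, *E2f8*, *Mcm2*, *Pcna*, *Mki67* and *Top2a*) held none of these octamers, which says only that those letters are not in the stretch searched.

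**Figure D4:**
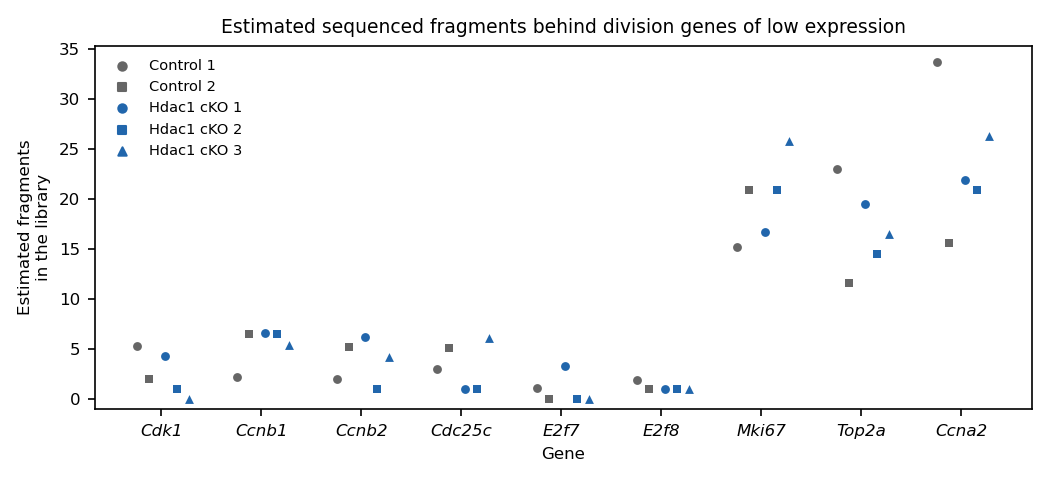
Estimated number of sequenced fragments per library behind 9 division genes of low expression, with controls in grey and *Hdac1* cKO libraries in blue. *Cdk1*, *Ccnb1*, *Ccnb2*, *Cdc25c*, *E2f7* and *E2f8* rested on 0 to 6.6 fragments, and *Mki67*, *Top2a* and *Ccna2* on 11.6 to 33.7.

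Genes around this pathway did not pass the threshold either. In 5 lists of 75 related genes, 45 were tested, 29 with a positive fold change (64.4%, against 53.7% of all tested genes) and 16 with a negative one, and none passed the threshold. Of 26 genes of origin licensing and replication, 18 were tested, 12 higher and 6 lower. Of 20 mitotic genes, 2 were tested, and the median of their mean levels was 0.407 FPKM. Of 10 genes of the DREAM complex and the DP partners of E2F, 7 were tested, 5 higher and 2 lower. Of 16 CDK regulators, 15 were tested, 9 higher and 6 lower, and of 3 partners of HDAC1 at Rb (*Hdac2*, *Rbbp7* and *Suv39h1*), 2 were higher and 1 lower. In 34 of the 45 (75.6%) the 95% interval lay inside 1.5-fold, against 82.3% of all tested genes.

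The 1 gene with an unadjusted p under 0.05 among these 45 (2.22%, against 4.36% of all tested genes) was *Cks2*, which encodes a small subunit of CDK complexes and was singled out after its values were seen. It was at 1.33 and 1.58 FPKM in control libraries, compared with 2.68, 3.05 and 2.22 FPKM in *Hdac1* cKO libraries. All cKO libraries were above both controls. The log2 fold change was 0.57 (0.20 to 0.93) with a limma p of 0.00731 (adjusted p = 0.955), and it was 0.66 in set 1 and 0.48 in set 2. It lay just under 1.5-fold in that fit and passed the threshold in 5 alternatives. These were a pseudocount of 0.1 (0.82, limma p of 0.00713), the replicate block (0.66, p of 0.00427) and a common total (0.61, p of 0.0118). The others were the fits without control 2 (0.64, resting on control 1 alone) and without cKO 3 (0.66, p of 0.00645). The adjusted p of *Cks2* was 0.295 or above in each of the 5. It was lowest with the replicate block, a fit in which 11.2% of all tested genes had a p under 0.05.

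Markers of the cells that could divide did not share 1 direction. The list of neural progenitor and neuroblast markers summed to 180 and 148 FPKM in the controls and to 269, 201.3 and 216 FPKM in the cKO libraries, and no gene of the list was at 0 in all libraries. Most of this sum was *Hopx*, which mature astrocytes express too, and which rose past the threshold, with 131 and 112 FPKM in control and 224, 166 and 181 FPKM in cKO libraries (difference of 0.64 on the log2 scale, limma p of 0.00190, adjusted p = 0.955). With the set as a block its adjusted p was 0.0457, in a fit where 9.34% of all tested genes had a p under 0.05. The adjusted p of *Hopx* was 0.0612 with the replicate block and 0.632 or above under every other alternative. Its fold fell below 1.5 on a common total (0.57), without control 2 (0.53) and without cKO 1 (0.51). Of the 6 tested genes of that list, 2 were higher and 4 lower. The 6 markers of oligodendrocyte precursors summed to 98.8 and 76.3 FPKM against 88.5, 66.1 and 78.1 FPKM, with overlapping groups, 1 higher and 5 lower. The part of either cell type in the levels of *Mki67*, *Top2a* or the MCM genes was not tested.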

How the data were processed

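RNA was sequenced from the hippocampus of 2 control and 3 *Hdac1* cKO mouse samples aged 3 months. The authors deposited FPKM, computed with TopHat, Bowtie and Cufflinks 2.0.0 (per the submitters' processing notes) on mm9, from TruSeq libraries of total RNA. Whether counting used strand is not given in the sources used here. Groups were taken from the labels.

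Genes averaging 1 FPKM or more were fitted with limma 3.58.1 under R 4.3.3, using lmFit and trended eBayes on log2(FPKM + 1) and genotype alone. P-values are two-sided, and adjusted p-values are Benjamini-Hochberg values over all 12740 tested genes. This scale understates changes of low genes. The threshold (fold change of at least 1.5, p under 0.05) is the study's, and its test was not named. The fit was tested on simulated data. Fragments were estimated from the steps between low FPKM values (30 to 77 genes per library) and the longest annotated transcript, and are approximate. No counting interval was derived from them.

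Positions and overlaps come from GENCODE vM1 (NCBIM37, the build of mm9), copies from BLAST 2.17.0 (at least 95% identity over at least 200 nt), and promoters from RefSeq. Members and lists were chosen with earlier results of these data known. Values in each library are given for members with an unadjusted p under 0.05, tested members whose groups do not overlap, *Cdkn1a*, *Cdkn1b*, *Ccne1*, *Cdc25b* and *Sertad1* (displayed by the study in aged mice), *Ccnd1* to *Ccnd3*, *Cdk5*, *Rb1*, *Mki67*, *Top2a*, *Pcna*, *Mcm2* to *Mcm7* and the highest member of each role, and for others chosen after their values were seen. Promoters not analysed here are those of *Ccna2*, *Ccnd1*, *Ccnd2*, *Ccne2*, *Cdk5*, *Cdkn1c*, *Cdc25c*, *Rb1*, *E2f4*, *E2f5* and *Mcm4*. Alternatives were other pseudocounts, filters, scalings (median ratio, common total, quantile) and variance models, a replicate block, a set block and leaving out each library.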

Additional observations from a re-analysis of the deposited data

How the results depend on the processing

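The number of genes past the threshold, 84, was 142 with a pseudocount of 0.1, 43 with a minimum mean of 5 FPKM, 166 on a common total (41.0% of them higher, against 60.7%), 31 without moderation of variances and 92 to 234 with 1 library left out (156 without control 1, 234 without control 2, 151 without cKO 1). It was 1 at an adjusted p under 0.05. The number of members past it stayed at 0 except with the pseudocount of 0.1, where it was 1 (*Cdkn1c*). Members with a p under 0.05 numbered 0 of 16 with the minimum mean of 5 (4.38% of all tested genes), 2 without moderation (*Cdk4* and *Mcm4*, 6.90% against 5.05%), 2 with the set block (*Cdk4* and *Cdkn1c*, 6.90% of members against 9.34% of all tested genes) and 0 to 2 with 1 library left out (0% to 6.90%, against 3.05% to 7.61%). No member had an adjusted p under 0.05 under any alternative. Members whose groups did not overlap numbered 3 with the minimum mean of 5 (18.8% against 20.4% of all tested genes) and 9 to 14 with 1 library left out. These were 48.3% of members against 47.7% of all tested genes without control 1, 41.4% against 54.6% without control 2, 31.0% against 40.2% without cKO 1, 34.5% against 29.9% without cKO 2 and 37.9% against 30.7% without cKO 3. The median log2 fold change of proliferation members was 0.0944 with the minimum mean of 5 (2 genes). It was 0.0729 within set 1 and −0.0263 within set 2, and −0.0766 (without control 1) to 0.0284 with 1 library left out. That of the other members was 0.112 within set 1 and −0.0743 within set 2, and −0.0369 to 0.0425 (without control 2) with 1 library left out. *Hdac1* kept its direction and its side of the unadjusted threshold under every alternative. Of the 29 tested members, 10 kept the sign of their difference under all alternatives and within both sets, and 19 did not. Apart from the settings whose construction gives the reason, the cause was not tested.

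The controls and cKO libraries share the numbers 1 and 2. With the replicate block, 133 genes passed the threshold and 2 members had a p under 0.05 (*Cdk4* and *Cdkn1c*, 6.90% against 11.2% of all tested genes), and replicate 3 then has no control. Same-numbered libraries deviated together (r = 0.402 and 0.269 across genes), but each such pair also lies inside a set, and r was 0.15 for cKO 3 with control 2, of the same set and a different number. The 15 members under 1 FPKM were left out of the main test by the filter on FPKM, and some of them (*Mki67*, *Rbl1*) rest on about as many estimated fragments as the tested *Cdk2*.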
